A study of Homo sapiens with 6 samples.

Results

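Transcripts of the mitochondrial protein import machinery were followed in A375 cells, a human line derived from a melanoma, in which a short hairpin RNA delivered by lentivirus had lowered UBE2S. The members were chosen by gene symbol: every probe set whose single annotated symbol begins with TOMM or TIMM, together with PAM16, DNLZ, GRPEL1, GRPEL2, SAMM50, MTX1, MTX2, PMPCA, PMPCB, CHCHD4 and GFER. The set as a whole was selected on the knockdown minus control values of these same arrays, in which TOMM5 was already known as one of the largest falls, so the sizes and counts below are a description and lend no independent support to a change of the pathway. The rule found 64 probe sets for 34 genes, out of 49395 probe sets on the array and 18132 genes with a probe set of their own. PAM16, TOMM7 and TIMM23B were read only by probe sets that the annotation shares with another symbol, and they are not among the 34 genes.

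The samples were 3 UBE2S knockdown cultures and 3 control cultures of A375, called biological replicates in the labels and read on 1 Affymetrix array each. UBE2S is a ubiquitin-conjugating enzyme that lengthens ubiquitin chains for the anaphase-promoting complex. The labels spell the target both as UBE2S and as UEB2S, and they name neither the hairpin sequence, nor what the control cells received, nor the time after infection. Nothing says whether the replicates came from separate infections, so p-values measure the spread between these 6 samples. Values are log2 expression from which the median over the 6 arrays has been taken, probe set by probe set. They give differences between arrays and no level, and for a gene that separates the groups the 2 groups necessarily lie on either side of 0. For the same reason A375 could not be checked against its lineage markers, and levels of different genes are not compared.

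Almost all mitochondrial proteins are made in the cytosol and imported. Precursors are recognised by receptors of the TOM complex, cross the outer membrane through the TOMM40 channel and are then sorted: beta-barrel proteins go to the SAM complex, small cysteine-rich proteins to the MIA pathway of the intermembrane space, carrier proteins through small TIM chaperones to the TIM22 translocase, and proteins with a presequence to the TIM23 translocase. An import motor built around the matrix chaperone HSPA9 pulls the last of these inward, and a matrix peptidase removes the presequence.

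UBE2S served as the check of the labels. It stood at -1.13, -1.05 and -1.01 in the knockdown arrays and at 1.06, 1.01 and 1.01 in the control arrays. The groups were far apart, with 23.5% of the control signal left in knockdown cells. Arrays of 1 group differed from each other by an SD of 0.0884 to 0.107 over the 64 member probe sets, and no array stood apart. Some array-wide measures moved with the groups. The 3' minus 5' signal of the ACTB control probe sets was 0.191 higher in knockdown arrays, without overlap. That of the GAPDH control probe sets was 0.0226 higher, and its groups overlapped. Hybridization spike-in transcripts were 0.168 higher and poly-A spike-in transcripts 0.0978 higher. Centring the arrays on these spike-ins shifted the median change of all genes to -0.17 and -0.10, against -0.0038 as deposited, so changes are stated relative to the deposited scaling. The part of RNA integrity and of array handling in the small changes was not tested.

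Most import genes were at or below their control signal in knockdown cells, and the machinery did not move as 1 block. By limma, with p-values adjusted over all 18132 genes and an adjusted p under 0.05 as the call, 15 of the 34 members fell, 2 rose and 17 were not called. Among all genes 40.1% were called, 18.6% downward and 21.4% upward. Since the set was selected on this contrast, nothing is read from the comparison. Adjusted p-values beside single members only set the size of a change against the spread between arrays. The counts of single complexes below stand against the same shares, and nothing is read from them either. The median log2 change was -0.10 over the members and -0.0038 over all genes, and it was -0.0999 without TOMM5. Every called member was without overlap between the groups. In all, 19 members lay lower in each knockdown array than in each control array, where 23.9% of all genes did. TOMM5, GRPEL1, TIMM17A and TOMM22 were lower by at least 0.5 on the log2 scale, and no member was higher by that much. Spike-in scaling lowers all changes by the same amount, which works toward added falls and lost rises. It also alters the SEs, since each array is centred on its own spike-in mean. With the hybridization spike-ins 29 members were called lower and 0 higher, where 50.7% of all genes were called lower and 9.73% higher. TIMM9, PMPCB, TIMMDC1, MTX2 and TIMM8B were then the members not called.

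**Figure D1:**
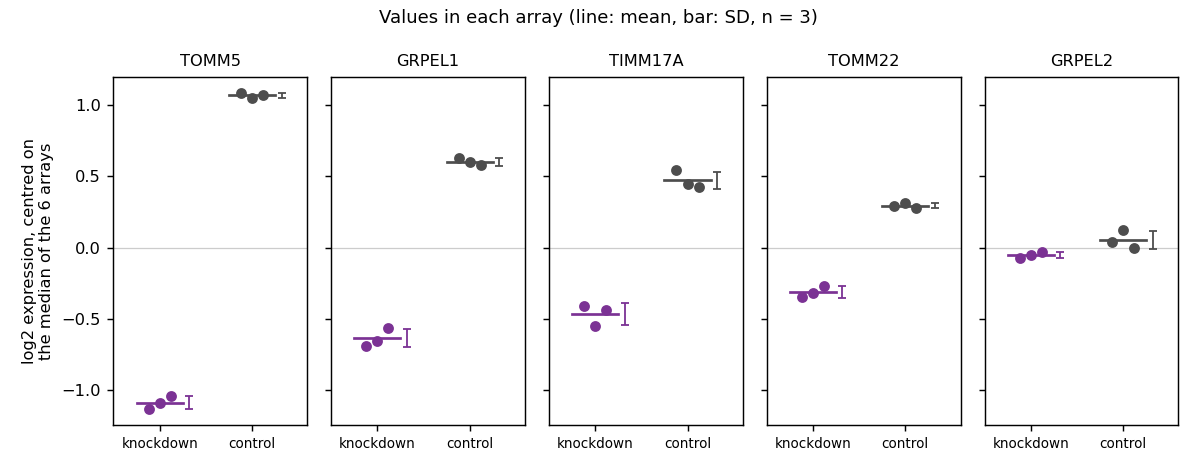
Median-centred log2 expression (vertical axis) in each knockdown array (left) and control array (right) for the 4 members with the largest changes and for GRPEL2. Points are arrays, lines are means and bars are SDs (n = 3). TOMM5 lies near -1.09 in knockdown and 1.07 in control arrays, and in GRPEL2 the groups nearly meet.

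At the outer membrane, the TOM complex held the largest change of the set. TOMM5, a small subunit of the TOM core that in yeast helps precursors pass from the receptors to the channel, stood at -1.13, -1.09 and -1.04 in the knockdown arrays and at 1.08, 1.05 and 1.07 in the control arrays. No knockdown array came near a control array. The difference was -2.15 (SE 0.04), which left 22.5% of the control signal, a 4.44-fold lower value. TOMM5 is counted among the calls, but no p-value is given for this difference because it drew attention to the set. It was the third lowest change of all 18132 genes and was of the size of the fall of UBE2S (-2.09, SE 0.04). The 3 probe sets of TOMM5 gave -2.25, -2.17 and -2.04, all in the brightest of 3 coarse signal classes. By the array's naming, 1 of them is specific to transcripts of the gene and the other 2 hold some probes that may cross-hybridize.

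The other TOM subunits changed far less than TOMM5 or were not called. TOMM22, the central receptor that also organises the channels into a complex, stood at -0.35, -0.32 and -0.27 in knockdown arrays and at 0.29, 0.31 and 0.28 in control arrays. It fell by 0.60 on the log2 scale (SE 0.04, adjusted p = 9.05e-06 in limma), to 65.8% of control, and its 2 probe sets gave -0.62 and -0.59. The channel protein TOMM40 fell (-0.34, SE 0.04), as did TOMM70 (-0.20, SE 0.04), the receptor for carrier precursors that docks cytosolic chaperones. TOMM20, the receptor for presequences, averaged -0.046 ± 0.021 in knockdown arrays and 0.044 ± 0.017 in control arrays (SD, n = 3 each). These groups did not overlap, but the difference of -0.090 was not called (adjusted p = 0.0718 in limma). The small subunit TOMM6 stood at -0.029 (SE 0.03), and the related genes TOMM20L and TOMM40L stood at -0.045 and 0.050, none of them called as deposited. Thus 4 of the 8 TOM genes under the symbol rule fell and 0 rose as deposited. With hybridization spike-in scaling TOMM20 (-0.26), TOMM20L (-0.21), TOMM6 (-0.20) and TOMM40L, which turned to -0.12, were called lower too. Poly-A spike-in scaling called TOMM20 (-0.19) and TOMM6 (-0.13) lower, and array weights called TOMM20 lower (-0.094).

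The SAM complex folds beta-barrel proteins into the outer membrane. Of its 3 genes under the symbol rule, which leaves out the metaxin MTX3, 1 was called as deposited, and it was higher. MTX2, a metaxin on its cytosolic face, stood at 0.13, 0.11 and 0.15 in knockdown arrays and at -0.11, -0.20 and -0.16 in control arrays. It rose by 0.28 (SE 0.04, adjusted p = 5.47e-04 in limma), a call that was lost with hybridization spike-in scaling (0.11). The barrel-forming subunit SAMM50 stood at -0.12 (SE 0.05, adjusted p = 0.0820) and MTX1, its other metaxin partner, at -0.047 (SE 0.04), neither called as deposited. Their groups overlapped. Both were called lower with hybridization (-0.29 for SAMM50 and -0.22 for MTX1) and with poly-A spike-in scaling (-0.22 and -0.15). SAMM50 was also called lower with array weights (-0.14) and without knockdown replicate 3 (-0.16).

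**Figure D2:**
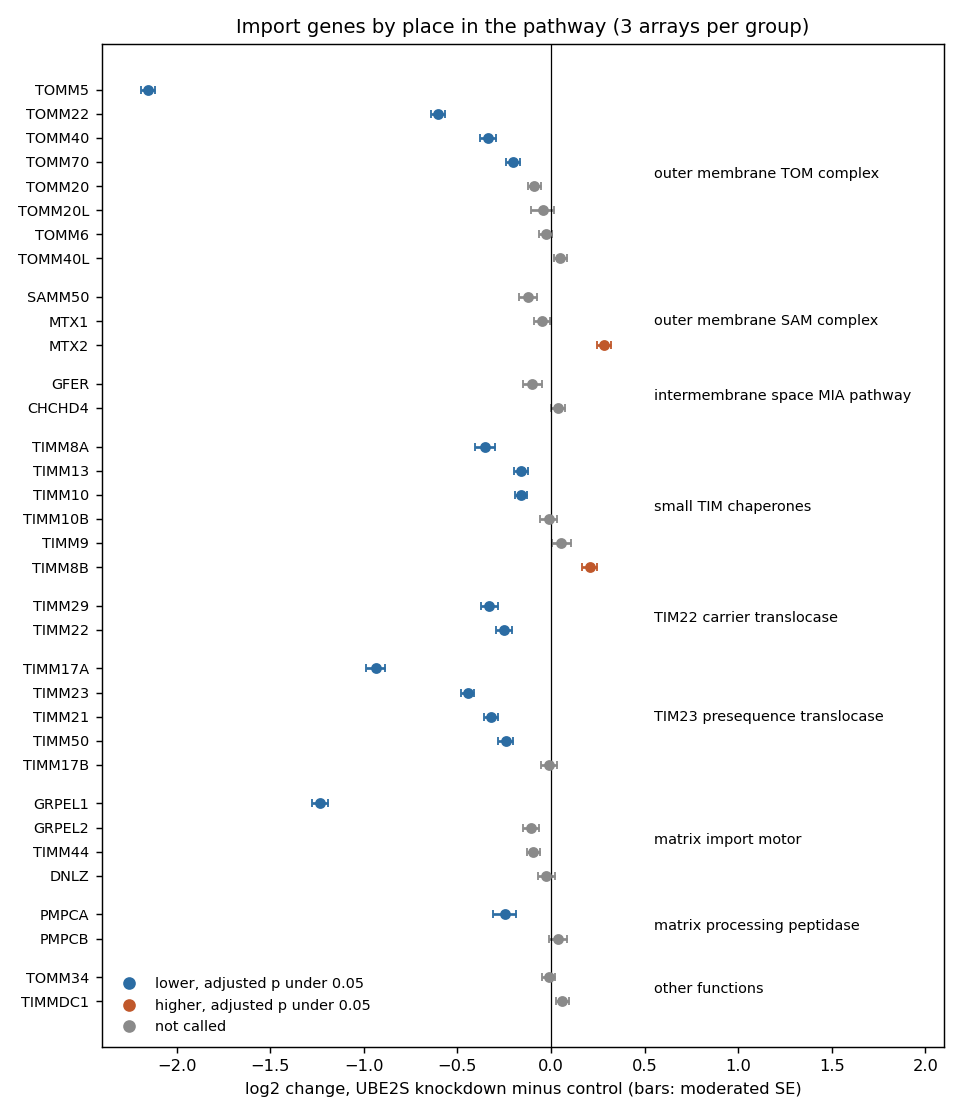
Log2 change, UBE2S knockdown minus control (horizontal axis), of all 34 members, grouped by their place in the pathway. Points are differences of means (3 arrays per group), bars are moderated SEs and colours give the call at an adjusted p under 0.05. TOMM5, GRPEL1 and TIMM17A lie apart on the left, and the rises of MTX2 and TIMM8B are not called with hybridization spike-in scaling.

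In the intermembrane space the relay that oxidises incoming proteins was not called as deposited. CHCHD4, the human MIA40 that puts disulphide bonds into small proteins, stood at 0.037 (SE 0.04) and turned to -0.13 and was called lower with hybridization spike-in scaling. GFER, the sulfhydryl oxidase that recharges CHCHD4, stood at -0.0999 (SE 0.05, adjusted p = 0.157 in limma). Its 2 probe sets differed, at -0.21 (called) and 0.012 (not called). GFER was called lower with hybridization (-0.27) and poly-A spike-in scaling (-0.20), and when its largest-variance probe set stood for the gene (-0.21).

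The small TIM chaperones, which carry hydrophobic precursors across the intermembrane space, were mixed: 3 of 6 fell and 1 rose. TIMM8A, whose loss causes a deafness and dystonia syndrome, stood at -0.086, -0.20 and -0.29 in knockdown arrays and at 0.17, 0.15 and 0.16 in control arrays, and it fell by 0.35 (SE 0.05, adjusted p = 0.00106 in limma). The knockdown arrays were widely spread, with an SD of 0.104 against 0.0135 in control arrays. TIMM13, which forms a hexamer with TIMM8A, fell (-0.16, SE 0.04), and so did TIMM10 (-0.16, SE 0.03). TIMM9, the partner of TIMM10, stood at 0.056 (SE 0.05) and TIMM10B at -0.013, neither called, though TIMM10B was called lower with hybridization spike-in scaling (-0.18). The 4 probe sets of TIMM10B ran from -0.21 to 0.25, and 1 of them was called higher. TIMM8B rose by 0.21 (SE 0.04, adjusted p = 0.00370 in limma), which was lost with hybridization (0.040) and with poly-A spike-in scaling (0.11).

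Both genes of the carrier translocase under the symbol rule fell. TIMM22, its channel, had values of -0.14, -0.17 and -0.069 in knockdown arrays and 0.18, 0.13 and 0.069 in control arrays, a fall of 0.25 (SE 0.04, adjusted p = 0.00236 in limma). TIMM29, a metazoan subunit that links it to the TOM complex, fell (-0.33, SE 0.04). In neither gene did the groups overlap. AGK lies outside the rule and is counted below with the other inner membrane factors. It stood at -0.11 (SE 0.05) with overlapping groups and was not called as deposited.

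Of the TIM23 translocase, 4 of 5 genes under the symbol rule fell and the remaining gene stood near 0. ROMO1 lies outside the rule and is counted below with the other inner membrane factors. It rose by 0.11 as deposited. TIMM17A, which builds the presequence channel with TIMM23, stood at -0.41, -0.55 and -0.44 in knockdown arrays and at 0.54, 0.45 and 0.42 in control arrays. It fell by 0.94 (SE 0.05, adjusted p = 5.31e-06 in limma), to 52.2% of control, the 116th lowest change of all genes. Its 2 probe sets of the high signal class gave -1.17 and -1.07, and a dim one gave -0.57. TIMM23 itself fell (-0.45, SE 0.03) with -0.26, -0.26 and -0.21 in knockdown arrays and 0.20, 0.20 and 0.21 in control arrays. Both of its probe sets are of the kind that the array names as shared between genes, and the near-identical copy TIMM23B cannot be told apart from it. TIMM21, which tethers the translocase to TOM, fell (-0.32, SE 0.04), as did the presequence receptor TIMM50 (-0.24, SE 0.04), with all 4 probe sets of TIMM50 called lower. TIMM17B, the paralogue of TIMM17A that can take its place in the channel, averaged 0.0011 ± 0.062 in knockdown arrays and 0.014 ± 0.025 in control arrays (SD, n = 3 each), a difference of -0.013 (SE 0.04) that was not called. With hybridization spike-in scaling TIMM17B was called lower at -0.18.

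The promoter windows of TIMM17A and TIMM17B are shown because the changes of these paralogues lay furthest apart among related pairs with a window for both genes, and that of TOMM22 because it had the second largest change among members with a window. They run from 250 bases before to 50 after the RefSeq start, 5' to 3' on the strand of the gene, in GRCh38.p14: chr1:201955253-201955552 (plus strand) for TIMM17A, chrX:48897719-48898018 (minus strand) for TIMM17B and chr22:38681707-38682006 (plus strand) for TOMM22. Capitals mark matches, on either strand, to the CCAAT box, to AAGATGG (a YY1 motif), to CCGGAAG (an ETS motif), to CACGTG (the E-box of MYC) or to CATGCGC (a core of the NRF1 motif).

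TIMM17A: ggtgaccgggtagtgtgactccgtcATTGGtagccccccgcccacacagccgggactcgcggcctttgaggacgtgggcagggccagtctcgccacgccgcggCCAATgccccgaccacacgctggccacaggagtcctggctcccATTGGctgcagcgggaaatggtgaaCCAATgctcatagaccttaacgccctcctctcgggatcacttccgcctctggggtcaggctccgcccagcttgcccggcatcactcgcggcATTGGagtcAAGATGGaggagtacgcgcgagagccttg

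TIMM17B: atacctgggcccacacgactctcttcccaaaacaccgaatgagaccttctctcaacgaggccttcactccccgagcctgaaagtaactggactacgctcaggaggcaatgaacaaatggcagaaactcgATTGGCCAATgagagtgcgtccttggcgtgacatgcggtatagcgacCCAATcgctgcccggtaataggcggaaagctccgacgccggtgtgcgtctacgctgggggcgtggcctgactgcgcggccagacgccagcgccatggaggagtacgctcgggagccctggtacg

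TOMM22: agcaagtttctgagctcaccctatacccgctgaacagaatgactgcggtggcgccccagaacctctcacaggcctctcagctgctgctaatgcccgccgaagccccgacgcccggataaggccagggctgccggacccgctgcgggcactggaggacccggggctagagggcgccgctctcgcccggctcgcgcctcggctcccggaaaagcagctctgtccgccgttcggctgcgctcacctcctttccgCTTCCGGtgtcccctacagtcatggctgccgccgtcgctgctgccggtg

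The windows of the paralogues both hold CCAAT boxes, 5 in TIMM17A and 3 in TIMM17B, and only the TIMM17A window of the 3 holds the YY1 motif. The TOMM22 window holds 1 ETS motif. Of the 30 members with a window, 14 held the ETS motif, which occurs in 10.67% of all 27305 windows. It was found in 6 of the 13 windows of called falls and in 8 of the 17 others. The CCAAT box was present in 12 member windows (35.7% of all), the YY1 motif in 4 (6.06% of all), the E-box in 3 (7.43% of all) and the NRF1 core in 3 (4.67% of all). These are matches of letters and say nothing of binding. TOMM5, GRPEL1, DNLZ and TIMM8B are named only.

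In the import motor GRPEL1 stood out. GRPEL1, the nucleotide exchange factor that resets HSPA9 after each pulling step, stood at -0.69, -0.65 and -0.57 in knockdown arrays and at 0.63, 0.60 and 0.58 in control arrays. It fell by 1.24 on the log2 scale (SE 0.04, adjusted p = 6.34e-07 in limma), to 42.5% of control, a 2.35-fold lower value and the 49th lowest change of all genes. Its 2 probe sets, both of the high signal class, gave -1.25 and -1.22. The other motor genes among the members were not called as deposited. TIMM44, which anchors HSPA9 at the channel, stood at -0.095 (SE 0.03, adjusted p = 0.0563 in limma). DNLZ, which keeps HSPA9 soluble, stood at -0.025 (SE 0.05), and GRPEL2 is described below. Outside the members, the motor gene DNAJC19 was called lower (-0.62) and HSPA9 was not called (-0.0027). A probe set that PAM16 shares with another symbol was called lower as well (-0.37). TIMM44 was called lower without the low signal class (adjusted p = 0.0447) and under both spike-in scalings (-0.26 by hybridization, -0.19 by poly-A), and DNLZ with the hybridization spike-ins (-0.19).

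GRPEL2, the paralogue of GRPEL1, was the 1 member whose probe sets were called in both directions. Their mean was -0.072, -0.055 and -0.031 in knockdown arrays and 0.041, 0.12 and -0.00016 in control arrays, a difference of -0.11 (SE 0.04, adjusted p = 0.0794 in limma). The mean was called lower with hybridization (-0.28) and poly-A spike-in scaling (-0.21). GRPEL2 was also called lower when its largest-variance probe set stood for the gene (-0.40). The probe set named as shared between genes stood at -0.16, -0.20 and -0.18 in knockdown arrays and at 0.22, 0.27 and 0.16 in control arrays, a change of -0.40. The other stood at 0.020, 0.093 and 0.11 in knockdown arrays and at -0.13, -0.020 and -0.16 in control arrays, a change of 0.18. Both separated the groups, in opposite directions, so the mean of GRPEL2 hides 2 different readings.

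Of the presequence peptidase, PMPCA, the subunit that binds the presequence, fell (-0.25, SE 0.06, adjusted p = 0.0142 in limma). Its groups did not overlap, and the call was lost without knockdown replicate 1 (adjusted p = 0.0504). The bright probe set of PMPCA gave -0.38 and the dimmer one -0.11. PMPCB, the catalytic subunit, stood at 0.037 (SE 0.05) and was not called as deposited. Its 4 probe sets ran from -0.048 to 0.24, and 1 of them was called higher. PMPCB was called higher when its largest-variance probe set stood for the gene (0.24). Outside the import route proper, TOMM34, a cytosolic co-chaperone, and TIMMDC1, an assembly factor of respiratory complex I, stood at -0.012 and 0.061, neither called as deposited. TOMM34 was called lower with hybridization (-0.18) and poly-A spike-in scaling (-0.11).

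Single probe sets gave a picture like that of the gene means. Fitted one by one over 49293 probe sets, 31 of the 64 fell and 5 rose, where 17.4% of all probe sets fell and 19.5% rose. Of 20 members read by several probe sets, 9 had every probe set called lower: TOMM5, GRPEL1, TIMM17A, TOMM22, TIMM23, TIMM8A, TIMM21, TIMM50 and TOMM70. The same share over all genes was not computed, so nothing is read from this count. The probe sets of TIMM8B differed most, at 0.51 and -0.0993, so the rise of this gene rests on 1 of its 2 probe sets, and the fall of TIMM13 likewise (-0.33 and 0.011).

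**Figure D3:**
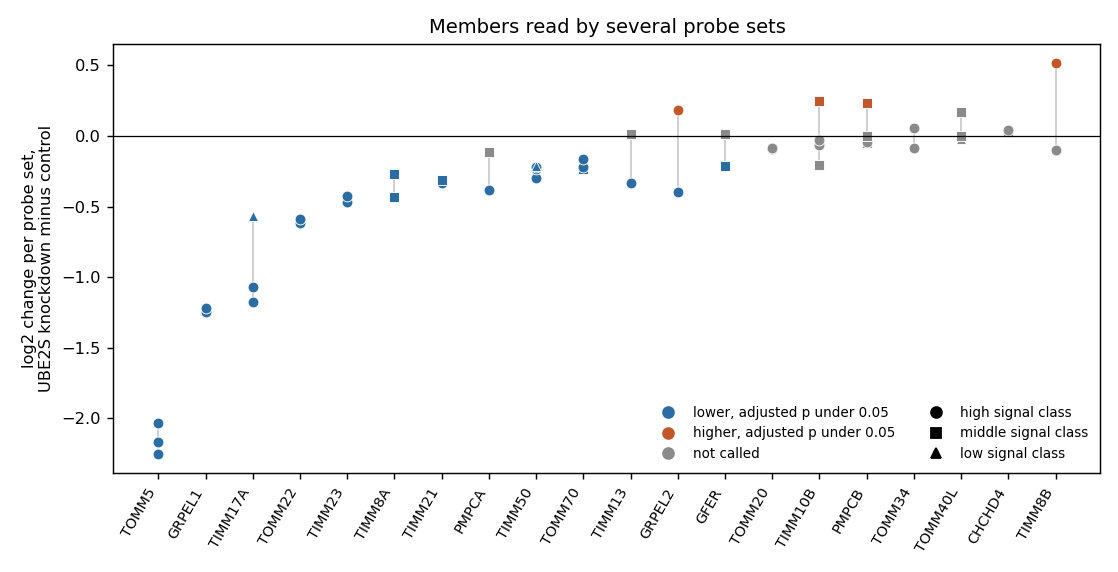
Log2 change, UBE2S knockdown minus control (vertical axis), of each probe set of the 20 members read by several. Colours give the call over all probe sets and shapes the coarse signal class. The probe sets of GRPEL1 and TOMM22 nearly coincide and those of TOMM5 lie between -2.25 and -2.04, whereas GRPEL2 spans -0.40 to 0.18 and TIMM8B spans -0.0993 to 0.51.

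Several members belong to related pairs. Both genes were measured in 8 of these, and the value of the first gene minus that of the second was taken within each array. For GRPEL1 minus GRPEL2 it was -0.62, -0.60 and -0.53 in knockdown arrays and 0.59, 0.47 and 0.58 in control arrays, so that the 2 changes lay 1.13 apart on the log2 scale. For TIMM17A minus TIMM17B it was -0.38, -0.51 and -0.51 in knockdown arrays and 0.50, 0.44 and 0.43 in control arrays. The changes of TIMM8A and TIMM8B differed by 0.56 and those of TOMM40 and TOMM40L by 0.39 in size. Such differences within an array do not depend on how the arrays are scaled, and they show unequal change only.

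**Figure D4:**
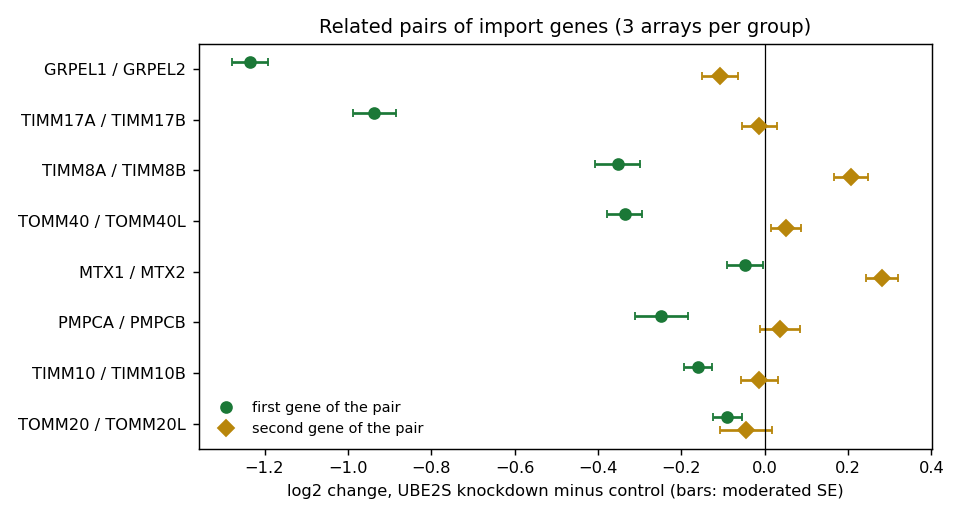
Log2 change, UBE2S knockdown minus control (horizontal axis), of the first gene (circles) and the second gene (diamonds) of 8 related pairs. Bars are moderated SEs (3 arrays per group). The first gene lies to the left in each pair, by 1.13 for GRPEL1 and GRPEL2 and by 0.04 for TOMM20 and TOMM20L.

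The genes around the machinery, from 8 lists outside the symbol rule, were also mixed. Of 77 measured genes out of 78 listed, 26 fell, 12 rose and 39 were not called, with a median of -0.029, where 18.6% of all genes fell and 21.4% rose. The counts of the single lists below stand against the same shares. Of the 12 rises, CMC2, ATAD1 and PINK1 were still called with the hybridization spike-ins.

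Among 9 chaperone partners in the matrix 4 fell and 0 rose, with a median of -0.093. HSPA9, the motor chaperone on which GRPEL1 acts, stood at -0.0027 (SE 0.04), and was called lower with hybridization spike-in scaling (-0.17). DNAJC19, a J-protein of the motor, stood at -0.35, -0.27 and -0.21 in knockdown arrays and at 0.26, 0.47 and 0.30 in control arrays and fell by 0.62 (SE 0.06). The matrix Hsp90 protein TRAP1 fell (-0.36, SE 0.03). Of 5 peptidases 3 fell, among them the inner membrane peptidase subunit IMMP2L (-0.28) and the aminopeptidase XPNPEP3 (-0.27). MIPEP, which trims octapeptides, rose by 0.15, and turned to -0.018 with hybridization spike-in scaling.

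Of 6 other inner membrane factors 2 fell and 1 rose. BCS1L, which places the Rieske protein in respiratory complex III, fell (-0.77, SE 0.06), as did AIFM1 (-0.21, SE 0.05), the binding partner of CHCHD4. ROMO1 rose by 0.11 and turned to -0.053 with hybridization spike-in scaling. Of 12 outer membrane partners and cristae organisers 5 fell and 2 rose. DNAJC11, which joins the SAM complex to the cristae organiser, stood at -0.42, -0.39 and -0.45 in knockdown arrays and at 0.44, 0.44 and 0.43 in control arrays and fell by 0.85 (SE 0.04, adjusted p = 1.36e-06 in limma). The outer membrane insertase MTCH2 fell (-0.39, SE 0.03), while its relative MTCH1 rose by 0.21 and the metaxin MTX3 by 0.26. Neither rise was called with hybridization spike-in scaling (0.042 and 0.097).

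Of 13 substrates of the CHCHD4 relay 4 fell and 1 rose, with a median of -0.0096. CHCHD5 fell (-0.29), as did NDUFB7 (-0.19), a subunit of respiratory complex I, and CMC2 rose by 0.30. Of 12 genes of import quality control and stress sensing 4 rose and 2 fell. PINK1, a kinase that gathers on the outer membrane when import fails, stood at 0.27, 0.28 and 0.36 in knockdown arrays and at -0.28, -0.28 and -0.37 in control arrays and rose by 0.62 (SE 0.04, adjusted p = 1.73e-05 in limma). ATAD1, an ATPase that extracts misplaced proteins from the outer membrane, rose by 0.51 (SE 0.04). The protease OMA1 fell (-0.33, SE 0.04), as did DELE1 (-0.31, SE 0.04), its substrate in the stress relay to the cytosol, and the kinase at the end of that relay, EIF2AK1, stood at 0.070 and was not called.

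Of 11 cytosolic chaperones that deliver precursors 3 fell and 2 rose. The J-protein DNAJA2 fell (-0.78, SE 0.04), as did HSPA4 (-0.21), and DNAJA1 and DNAJB1 each rose by 0.25, a call lost for both with hybridization spike-in scaling. Of 9 measured factors that bind promoters of nuclear mitochondrial genes or act there, 3 fell and 1 rose. MYC fell (-1.11, SE 0.07), as did the coactivator PPRC1 (-0.35, SE 0.04), and SP1 rose by 0.14, turning to -0.032 with hybridization spike-in scaling. NRF1 (-0.068), GABPA (-0.11) and YY1 (-0.026) were not called as deposited. They were called lower with hybridization (-0.24, -0.28 and -0.19) and with poly-A spike-in scaling (-0.17, -0.21 and -0.12).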

How the data were processed

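The deposited table held log2 expression for 49395 probe sets (102 array controls, 0 missing values) in 3 UBE2S knockdown and 3 control arrays. The submitters' processing notes name limma, RMA and affy, with no version, role or order. RMA corrects background, quantile-normalizes and summarizes on the log2 scale, which hides any shift common to all transcripts. The deposited values were also centred on each probe set's median (largest absolute median 4.85e-07), a step not described in the sources used here, so filters on signal could not be applied. The number of arrays limits the precision.

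Gene names came from the array's annotation table: 44988 probe sets had 1 symbol, 1832 several and 2473 none. For each of 18132 genes the mean of its single-symbol probe sets was fitted in R 4.3.3 by limma 3.58.1 (lmFit, then eBayes), two-sided, with Benjamini-Hochberg adjustment over all genes and a threshold of 0.05. SEs are the moderated ones. A second fit took the 49293 probe sets singly. A signal class was read from the rounding step of the values (tolerance 0.15 step): 8 to 16, 4 to 8 or 2 to 4 before centring for high, middle and low. It does not show detection. The fits were tested on simulated data.

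Values in all arrays are given for TOMM5 and for called members without overlap and with a change of at least 0.5, and for members with probe sets called both ways; others were added for each complex after their values were seen. Up to 2 called genes per direction are named from each outside list. Members and lists were chosen with earlier results of these data known. Alternatives were the largest-variance probe set, centring arrays on their medians, on 18 probe sets of hybridization spike-ins or on 24 of poly-A spike-ins, no low class, array weights, a robust variance model, a replicate block and omission of single arrays. Promoters are from RefSeq tables of GRCh38.p14, with 30 of 34 members matched by symbol.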

Additional observations from a re-analysis of the deposited data

Results flagged for a closer look

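The annotation shares 10 probe sets between a member and another symbol, and these entered no count above. Of them, 2 were called by limma over all probe sets, both lower and without overlap. Among all probe sets 17.4% were called lower and 19.5% higher. Of 3 probe sets annotated with both TIMM23 and TIMM23B, 1 had a log2 change of -0.42 (SE 0.05, adjusted p = 5.72e-04). The others stood at 0.012 (adjusted p = 0.940) and -0.10 (adjusted p = 0.179) and were not called. The probe sets annotated with TIMM23 alone gave -0.47 and -0.43. The probe set annotated with PAM16 and the read-through locus CORO7-PAM16 had a change of -0.37 (SE 0.05, adjusted p = 4.16e-04). They are listed because they hold a signal outside the genes compared.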

How the results depend on the processing

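The deposited scaling decided the counts most. With hybridization spike-in centring 29 members fell and 0 rose, 48 member probe sets fell and 1 rose, and 53 of the genes outside the rule fell and 3 rose. All genes were then called lower in 50.7% and higher in 9.73% of cases. With poly-A spike-in centring 23 members fell and 1 rose, 40 member probe sets fell and 2 rose, and 40 outside genes fell and 6 rose, where 34.7% of all genes fell and 13.7% rose. Both centrings shift all genes downward alike, so a fall that is kept under them says nothing of its stability. CHCHD4 turned to -0.13 and TOMM40L to -0.12 with hybridization spike-ins. Leaving out 1 array gave 14 to 16 falls and 2 rises among members, where 15.8% to 17.1% of all genes fell and 19.0% to 19.7% rose. Member probe sets then had 25 to 30 falls and 3 to 5 rises, and outside genes 24 to 27 falls and 7 to 12 rises. The low counts of 3 probe set rises came without knockdown replicate 2, knockdown replicate 3 or control replicate 1, and that of 7 outside rises without knockdown replicate 3. All 15 falls and both rises of members were called under every setting, except PMPCA without knockdown replicate 1, MTX2 with hybridization spike-ins and TIMM8B with either spike-in. The largest-variance probe set gave 17 falls and 3 rises, where 20.3% of all genes fell and 22.5% rose. Array weights gave 17 falls and 2 rises (20.1% and 22.5% of all genes). Without the low signal class there were 16 falls and 2 rises (21.7% and 24.8% of all genes).

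Replicate numbers were shared by the groups, but same-numbered arrays did not deviate together (correlations of -0.030, -0.016 and -0.10), so no pairing was assumed. With the replicate block 15 members fell and 2 rose, where 16.9% of all genes fell and 19.9% rose. In that fit 3 rather than 5 member probe sets rose. Centred values leave the signal over background unknown, which limits what can be said of dim probe sets. All planned settings were run.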

Other observations

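The nearest measured genes on either side of the 4 members with the largest changes, by the order of the RefSeq assembly table and chosen after the values were seen, were not called lower. Beside TOMM5 on chromosome 9, FBXO10 stood at 0.022 (SE 0.04) and FRMPD1 at 0.012 (SE 0.07), with overlapping groups. Beside GRPEL1 on chromosome 4, TADA2B rose by 0.28 (SE 0.03, adjusted p = 3.13e-04 in limma) and LINC02447 stood at 0.067 (SE 0.04). Beside TIMM17A on chromosome 1, RNPEP rose by 0.19 and LMOD1 stood at -0.11, which was not called (adjusted p = 0.0554 in limma). Beside TOMM22 on chromosome 22, CBY1 stood at 0.25, 0.23 and 0.26 in knockdown arrays and at -0.23, -0.25 and -0.28 in control arrays and rose by 0.50 (SE 0.03). JOSD1 stood at 0.053 and was not called.

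Markers of cell types were listed too, but differences between the groups cannot check the identity of the cells. Among all genes 18.6% were called lower and 21.4% higher. Of 6 melanocyte lineage genes 1 rose (S100B, 1.09) and 1 fell (MITF, -0.72). Of 4 leukocyte genes 0 were called (range 0.042 to 0.048). Of 5 fibroblast genes LUM rose by 0.93 and DCN fell (-0.23), and of 4 keratinocyte genes KRT14 fell (-0.46). Their part in the changes of import genes was not tested.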
